A study of Mus musculus with 3 samples.

Results

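The genes described here are 10 genes of MHC class I presentation: the heavy chains H2-K1, H2-D1, H2-Q7, H2-Q10, H2-T23 and H2-M3, their light chain B2m, the peptide transporter subunits Tap1 and Tap2, and the loading factor Tapbp. They were taken by symbol, as every row of the array's value table whose annotated gene, brought to its current mouse symbol, is one of these names. That gave 14 of the 16281 rows, and 10 of the 10698 named genes in the table. A further 2 rows were annotated to several genes, a class I gene of this group among them, and were not used as rows of any gene. Kidney RNA was measured on 3 arrays of 2 colours. The Cy5 channel held RNA of BALB/c mice with glomerulonephritis, 1 mouse per array, taken on day 11 after injection of an antibody against the glomerular basement membrane (anti-GBM). The Cy3 channel of every array held 1 pool of kidney RNA from 5 normal BALB/c mice. All mice were of the same strain, no genotype or second agent is named, and the labels are silent on age, sex and whether the control mice were injected.

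Class I molecules carry peptides made inside a cell to its surface, where CD8 T cells read them and natural killer (NK) cells sense the class I molecules themselves. Each consists of a heavy chain and beta-2 microglobulin. The transporter TAP, a pair of Tap1 and Tap2, pumps peptides into the endoplasmic reticulum, and tapasin (Tapbp) holds the empty molecule at the transporter until a peptide fits. H2-K1 and H2-D1 are the classical, highly polymorphic heavy chains. H2-Q7, H2-Q10, H2-T23 and H2-M3 are nonclassical: H2-Q7 encodes Qa-2, H2-Q10 a secreted molecule made mainly by liver, H2-T23 the Qa-1 molecule that NK receptors read, and H2-M3 a molecule that presents formylated peptides. Interferons raise transcription of most of these genes, and in kidney tubules class I is known to rise when the tissue is inflamed. BALB/c mice carry the d haplotype of the MHC, so their class I alleles differ from those of the reference strain.

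All values are log ratios of nephritic mouse over control pool, centred on each array's median. No source used here names the base of the logarithm. A value of 1 would mean 2-fold if the base were 2, 2.72-fold for natural logarithms and 10-fold if the base were 10. The direction was taken as Cy5 over Cy3, which the dyes make likely; nothing states it, and with the opposite sign every rise would read as a fall. An exact 0 was read as a missing ratio; 6 of the 42 cells of the 14 rows held one (14.3%), against 26.7 to 32.4% of all cells per array. Of the 14 rows, 10 had a ratio on all 3 arrays, and these covered 9 of the 10 genes, with B2m left out. Ratios of the 3 mice were tested against 0 with limma, using Benjamini-Hochberg adjustment over all 8449 features, of which 20.8% were called higher and 22.3% lower at an adjusted p of 0.05. Every array carries the same control pool in the same dye. A dye bias of a gene, or a deviation of the pool, would shift all 3 of its ratios alike and enter the mean that is tested, while the spread used in the test holds neither. In whole kidney, more RNA per cell and more cells of a type cannot be told apart.

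The start regions of these genes are shown first, as a description of their letters. H2-K1, H2-D1 and H2-Q7 hold an NF-kB motif in a like stretch, which H2-Q10 has in altered form. H2-M3, with a lower mean log ratio, also held the motif, and Tap1, which was called higher too, did not. No link between a motif and a log ratio was tested. The sequences are from RefSeq, build GRCm38.p6 of the C57BL/6J strain, not from BALB/c, and 9 of the 10 genes matched (Tap2 did not). The stretch of 30 bases around the NF-kB match of H2-D1 was placed without gaps on the other heavy chains, and the capitals mark its 11 bases at positions 10 to 20, counted from 1 at the 5′ end of the stretch. All lines read in the gene's own direction. In H2-Q7 and H2-M3 the best placement differed at 10 and 12 of 30 bases, against 11 and 13 at the next best. A placement without gaps cannot follow a lost or gained base, so for these genes its counts of differences are uncertain.
H2-K1 (chr17:34000438-34000467, minus strand): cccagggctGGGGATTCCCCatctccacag
H2-D1 (chr17:35262914-35262943, plus strand): cccagggctGGGGATTCCCCatctcctcag
H2-Q7 (chr17:35439013-35439042, plus strand): cccatggctGGGGATTCCCAtctccccagt
H2-Q10 (chr17:35469904-35469933, plus strand): cccagggctGAGGACTCCCCatctccccag
H2-M3 (chr17:37270099-37270128, plus strand): cccagcattGGAGATTCCCCcatttcctct

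The stretch of H2-K1 differed from that of H2-D1 at 1 base, outside the capitals. In H2-Q7 the placement without gaps gave C20A in the capitals (the base of H2-D1 first). H2-Q7 reads GGGGATTCCC and then atctcc, where H2-D1 reads GGGGATTCCCC and then atctcc. With a gap of 1 base these letters line up, so C20A is a missing C, not a changed base. The capital A of H2-Q7 lies outside its NF-kB match. H2-Q10 differed at 3 bases, of which G11A and T15C lie in the capitals, and no NF-kB consensus match remained in its window. H2-T23 had no such stretch: its best placement differed at 16 bases, as did its next best. In place of it, H2-T23 held the interferon-stimulated response element core, searched as GAAANNGAAA on both strands, which among these genes only B2m also held. The capitals below mark that core, and in B2m also the NF-kB match behind it.
H2-T23 (chr17:36032800-36032829, minus strand): ctgcTTTCTCTTTCataaagacacaaatga
B2m (chr2:122147544-122147573, plus strand): acatGAAACTGAAAatgGGAAAGTCCCttt

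In the windows from 250 bases before to 50 bases after the start, the NF-kB consensus was found in 5 of the 9 genes (H2-K1, H2-D1, H2-Q7, H2-M3 and B2m), against 9.55% of the 27025 genes with a window. The CRE motif TGACG, also searched on both strands, was found in 6 genes, against 23.05% of genes, and CCAAT in 8, against 41.1%. The interferon core was found in 2 genes, against 3.99% of genes. A shorter form, GAANNGAAA, searched after the sequences were seen, was found in 5 genes, against 8.68% of genes. The match lay on the other strand, so the gene's own direction reads TTTCACTTC. These letters began at or just after the end of the printed stretch in H2-K1, H2-D1, H2-Q7 and H2-Q10. In H2-M3 they began close behind it. The heavy chains are copies of one another in part, so these are not independent matches, and a match describes letters, not binding. The 250 bases before the start of H2-D1, the gene whose 3 ratios lay closest together, are given whole, with the NF-kB match and the shorter interferon letters in capitals.
H2-D1 (chr17:35262844-35263093, plus strand): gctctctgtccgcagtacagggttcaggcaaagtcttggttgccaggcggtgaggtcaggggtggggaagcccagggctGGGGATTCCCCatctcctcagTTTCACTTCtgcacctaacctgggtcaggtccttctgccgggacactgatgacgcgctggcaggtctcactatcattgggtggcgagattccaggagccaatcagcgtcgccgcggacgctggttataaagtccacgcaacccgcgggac

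Of the 9 tested genes, 6 rose (H2-K1, H2-D1, H2-Q7, Tap1, Tap2 and H2-M3), 0 fell and 3 did not pass (H2-Q10, Tapbp and H2-T23). In the same test 20.8% of all features were called higher. No gene of the group was lower at an unadjusted p under 0.05, by limma or by the unmoderated one-sample test. The median over the 9 genes was 0.52, beside -0.0081 over all features. Of the 9 tested genes 6 were above 0 in all 3 mice, beside 33.3% of all features. With exact 0 kept as a ratio, only H2-K1 and H2-D1 of the 6 kept their calls, and 4.15% of features were called higher. In that setting rows that hold a 0 are averaged into their gene, so its mean can move though its complete rows do not. With no moderation of the variance 0 of the 9 genes and 0 of all features were called, although 5 of the genes and 3060 features had an unadjusted p under 0.05. Leukocyte and macrophage markers were higher in the same kidneys: 15 of 15 tested rose, with means over the list of 0.96, 0.85 and 0.96 in mice 1, 2 and 3, and their part in the class I values was not tested.

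**Figure D1:**
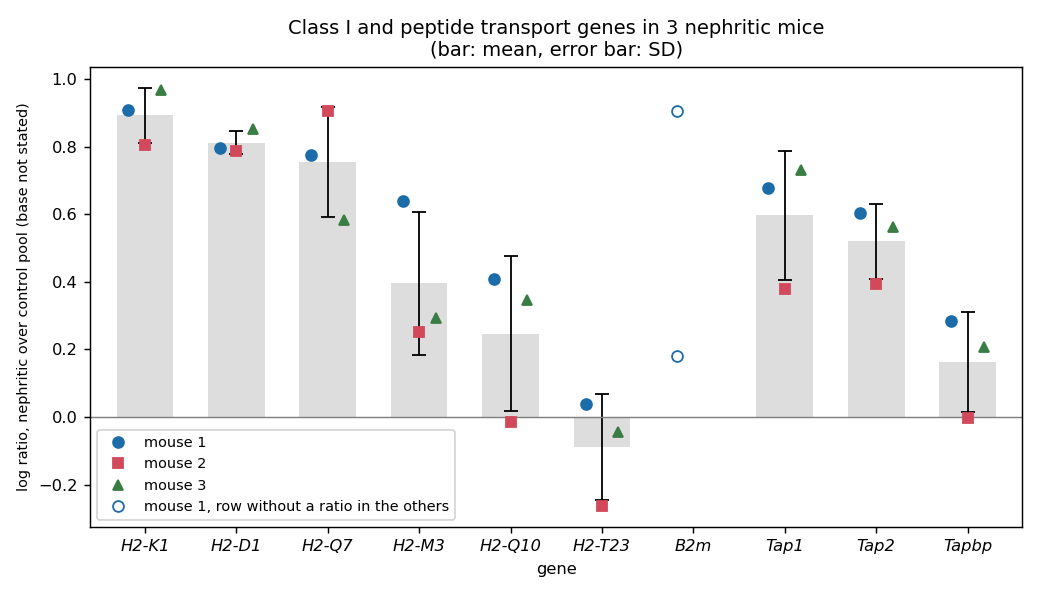
Log ratio of nephritic mouse over control pool (y axis, base of the logarithm not stated) for each gene (x axis). Points are the 3 mice, bars the mean and error bars the SD; open circles are the 2 B2m rows, measured in mouse 1 only. H2-K1, H2-D1 and H2-Q7 sit highest, with means of 0.89, 0.81 and 0.75, while H2-T23 lies around 0.

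The classical heavy chains had the highest means of the group, a rank that H2-K1 holds only while its incomplete second row is left out. H2-K1 stood at 0.91, 0.80 and 0.97 in mice 1, 2 and 3, a mean of 0.89 ± 0.082 (SD, n = 3; 95% interval 0.73 to 1.06; limma adjusted p = 0.000169). That is above 96.7% of all features. H2-D1 stood at 0.80, 0.79 and 0.85, a mean of 0.81 ± 0.035 (95% interval 0.65 to 0.97; limma adjusted p = 0.000193). Its SD was the lowest among the 9 genes, beside a median SD of 0.121 over all features. H2-K1 was above H2-D1 in all 3 mice, by 0.081 ± 0.0549, a gap about the size of the spread of H2-K1 itself.

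A second row of H2-K1 did not go with the first. It had no ratio in mouse 1 and stood at 0.17 and 0.039 in mice 2 and 3, where the first row stood at 0.80 and 0.97. With this row averaged in, H2-K1 moved to 0.63 where ratios on 2 arrays sufficed (limma adjusted p = 0.00304) and to 0.50 with exact 0 kept (limma adjusted p = 0.0256). The first value is below that of H2-Q7 at the same setting (0.75), and the second below H2-Q7 (0.77), Tap1 (0.61) and Tap2 (0.54). Which transcripts either row detects was not tested. Heavy chains alike in sequence may share signal between rows, which was not tested either.

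Among the nonclassical heavy chains H2-Q7 rose to a similar height. Its values were 0.77, 0.90 and 0.58, a mean of 0.75 ± 0.162 (SD, n = 3; limma adjusted p = 0.000591), and mouse 2 was the highest. The call was lost with exact 0 kept (0.77, limma adjusted p = 0.06), though its own row held no 0. H2-M3 was at 0.64, 0.25 and 0.29, a mean of 0.40 ± 0.212 (limma adjusted p = 0.0138). Mouse 1 stood apart as the high one, and without it the value moved to 0.27 and still passed (limma adjusted p = 0.0129). Exact 0 kept ended its call as well (limma adjusted p = 0.169).

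H2-Q10 did not pass, and its mice disagreed. It stood at 0.41 and 0.35 in mice 1 and 3 and at -0.015 in mouse 2, a mean of 0.25 ± 0.228 (SD, n = 3; 95% interval 0.018 to 0.48; limma adjusted p = 0.0783). Without mouse 2 the mean was 0.38 and passed (limma adjusted p = 0.0181), and with weights per array it was 0.30 and passed (limma adjusted p = 0.00533). H2-T23 did not pass. Its tested row stood at 0.038, -0.26 and -0.043, a mean of -0.089 ± 0.156 (95% interval -0.28 to 0.10; limma adjusted p = 0.409). With 1 mouse left out the mean ran from -0.15 to -0.0022 and did not pass. A second row, with no ratio in mouse 2, was at -0.32 and -0.14 in mice 1 and 3. The upper end of the interval of H2-T23 lies below the lower ends for H2-K1, H2-D1 and H2-Q7, at 0.73, 0.65 and 0.56.

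B2m, the light chain shared by all these molecules, could not be tested. Its 2 rows had a ratio in mouse 1 only, at 0.90 and 0.18, and were exactly 0 in mice 2 and 3. The higher of them stood where H2-K1 stood in that mouse, at 0.91, and the other far below it. With exact 0 kept as a ratio B2m was tested, at 0.19 ± 0.322 (SD, n = 3), and did not pass (limma adjusted p = 0.569).

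Both subunits of the peptide transporter rose. Tap1 was at 0.68, 0.38 and 0.73, a mean of 0.60 ± 0.19 (SD, n = 3; limma adjusted p = 0.00205). Tap2 was at 0.60, 0.39 and 0.56, a mean of 0.52 ± 0.11 (limma adjusted p = 0.00175). Mouse 2 was the lowest for both. The difference between Tap1 and Tap2 was 0.077 ± 0.0931, with mouse 2 the other way, so the subunits did not differ beyond the spread between mice. Each lost its call with exact 0 kept, at 0.61 and 0.54 (limma adjusted p = 0.0899 and 0.0592).

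The Tap1 mean joins 2 rows that parted in mouse 2. One row stood at 0.84, 0.94 and 0.69, a mean of 0.83, and passed when rows were tested singly (limma adjusted p = 0.000179). The other stood at 0.51, -0.18 and 0.77, a mean of 0.36, and did not pass (limma adjusted p = 0.106). In mice 1 and 3 both rows were well above 0, and in mouse 2 they differed in sign. Tapbp, which bridges transporter and heavy chain, was at 0.28, -0.0039 and 0.21, a mean of 0.16 ± 0.149 (95% interval -0.027 to 0.35; limma adjusted p = 0.145). With 1 mouse left out it ran from 0.10 to 0.25 and did not pass, and with weights per array it passed (0.18, limma adjusted p = 0.022).

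In order of their means the genes ran H2-K1, H2-D1, H2-Q7, Tap1, Tap2, H2-M3, H2-Q10, Tapbp and H2-T23. Of the 8 pairs of neighbours in this order, H2-K1 over H2-D1 and Tapbp over H2-T23 (0.25 ± 0.00713) held in all 3 mice, and the other 6 crossed in at least 1 mouse. Mouse 2 was the lowest of the 3 for 8 of the 9 genes, all but H2-Q7. Over all features mouse 2 was the lowest for 38.8%, and over the features called higher for 36.4%. The median of the 9 genes was 0.64 in mouse 1, 0.38 in mouse 2 and 0.56 in mouse 3.

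**Figure D2:**
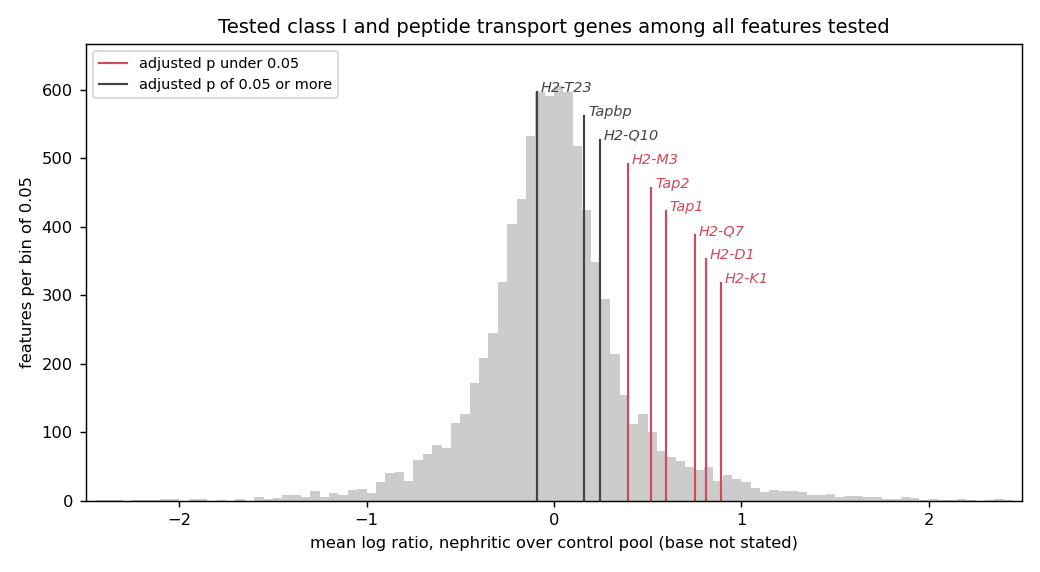
Number of features (y axis) by mean log ratio (x axis, base not stated), in bins of 0.05, for all 8449 features tested; vertical lines mark the 9 tested class I and peptide transport genes, their heights carry no value, and features beyond the ends of the x axis are not drawn. H2-T23 at -0.089 lies within the bulk and H2-K1 at 0.89 in the upper tail.

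The wider heavy chain family was mixed. Of 18 tested genes of other class I and class I-like heavy chains, 9 rose, 3 fell and 6 did not pass. That is 50% higher and 16.7% lower, beside 20.8% and 22.3% of all features. The median was 0.22. H2-Q4 rose by 0.62 ± 0.0322 (SD, n = 3; limma adjusted p = 0.000529), close to H2-Q1 at 0.62 ± 0.0357, whose call was lost with exact 0 kept. Cd1d1, which presents lipids to NKT cells, rose by 0.74 ± 0.0671 (limma adjusted p = 0.000313). With exact 0 kept it moved to 0.38, where a second row, at 0 on all 3 arrays, was averaged in. Mr1, which presents vitamin metabolites to MAIT cells, fell to -0.72 ± 0.0875 (limma adjusted p = 0.000382). H2-M10.1 stood at -1.56 ± 0.129 (limma adjusted p = 4.53e-05), from 1 row; its other row had a ratio in mouse 1 only, at 0.082, and the mean moved to -0.76 with exact 0 kept. H2-M9 was the third that fell, at -0.24 ± 0.0515, a call lost without mouse 2, without mouse 3 and with exact 0 kept. The count of 9 dropped to 4 without mouse 3 and to 4 with exact 0 kept.

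Rows of a heavy chain gene did not always go together outside the 10 genes either. H2-Q5 had 4 rows with means of 0.45, 0.42, 0.33 and -0.17, and its gene mean of 0.26 passed (limma adjusted p = 0.0212), a call lost without mouse 2, without mouse 3 and with exact 0 kept. The 4 rows of H2-T22 were all above 0 on average, between 0.11 and 0.31, and the gene did not pass (0.19 ± 0.0345, limma adjusted p = 0.0568), though it passed without centring (0.20, limma adjusted p = 0.0437) and without mouse 1 (0.20, limma adjusted p = 0.0446). The H2-T rows spanned both sides of 0, with H2-T24 at 0.44 and H2-T10 at 0.30 beside H2-T9 at -0.10 and H2-T23 at -0.089; H2-T24 and H2-T10 lost their calls with exact 0 kept, and H2-T10 also without mouse 3.

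**Figure D3:**
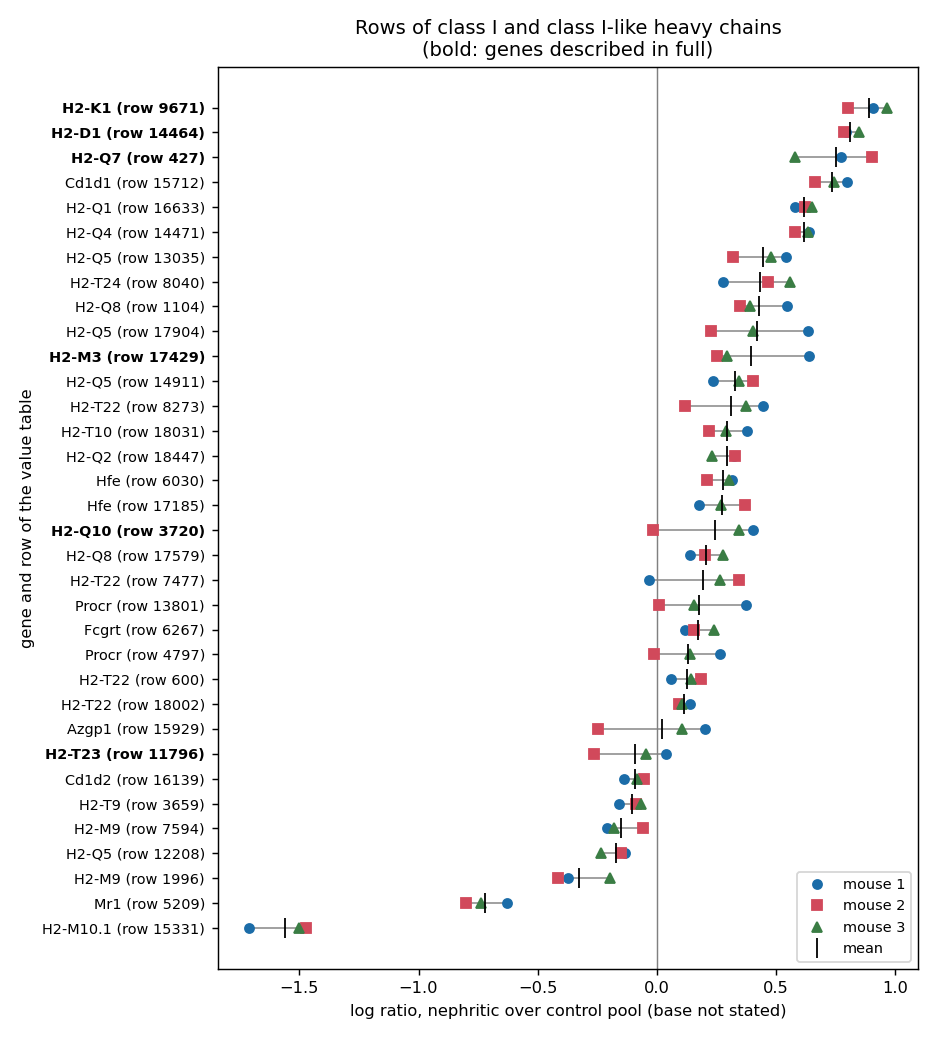
Log ratio (x axis, base not stated) of each row of the value table with a ratio on all 3 arrays (y axis) for class I and class I-like heavy chains, sorted by mean; symbols are the 3 mice, black ticks the mean, grey lines the range, and bold names belong to the 10 genes. H2-K1, H2-D1 and H2-Q7 top the list, and H2-M10.1 at -1.56 and Mr1 at -0.72 close it.

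Peptides for class I come from the proteasome, are trimmed by peptidases and are loaded with the help of chaperones. Of 15 tested genes of peptide supply and loading, 5 rose (33.3%, beside 20.8% of all features), 0 fell and 10 did not pass. The median was 0.05. With exact 0 kept 2 rose, and 2 were called lower without mouse 1. The immunoproteasome subunits Psmb8 and Psmb10, which replace the constitutive catalytic subunits, rose by 1.02 ± 0.189 and 0.75 ± 0.0537 (SD, n = 3; limma adjusted p = 0.000242 and 0.000273). Psmb8 lost its call with exact 0 kept. Psmb9, the third immunoproteasome subunit, had no ratio in mouse 2 and stood at 0.079 and 0.39 in mice 1 and 3, and Psme1, a proteasome activator subunit, was at 0 on all 3 arrays. The trimming peptidase Erap1 rose by 0.40 ± 0.0776 and the chaperone calreticulin, Calr, by 0.45 ± 0.044 (limma adjusted p = 0.00397 and 0.00203), Erap1 not passing with exact 0 kept. Calnexin, Canx, spread from 0.047 in mouse 1 to 0.81 in mouse 2 and passed at 0.49 ± 0.398 (limma adjusted p = 0.0285), a call lost without mouse 2, without mouse 3 and with exact 0 kept. The loading partner Pdia3 was at 0.17 ± 0.128 and did not pass, except without mouse 1 (0.24, limma adjusted p = 0.0283).

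Of 19 tested genes of interferon signalling and class I transcription, 10 rose (52.6%, beside 20.8% of all features), 1 fell and 8 did not pass. The median was 0.25. The count of 10 became 6 without mouse 3 and 3 with exact 0 kept. Both chains of the interferon gamma receptor rose, Ifngr1 by 0.86 ± 0.0444 and Ifngr2 by 0.63 ± 0.151 (SD, n = 3; limma adjusted p = 0.00016 and 0.00114). The transcription factor Irf1, which binds class I promoters, rose by 0.70 ± 0.156 and Irf9 by 0.47 ± 0.0618 (limma adjusted p = 0.000782 and 0.00185). The gene that fell was Ifng, the cytokine itself, at -1.27, -0.84 and -0.67 in the 3 mice, a mean of -0.93 ± 0.312 (limma adjusted p = 0.00107), and it moved to -0.46 with exact 0 kept. Exact 0 kept ended the calls of Ifng, Ifngr2 and Irf1. Rfx5, a factor of class I and II promoters, had a ratio in mouse 3 only, at 0.18. Nlrc5 was not analysed here.

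The list of class I receptors, T cell and NK cell genes is mixed and holds receptors of myeloid cells as well. Of its 16 tested genes 6 rose (37.5%, beside 20.8% of all features), 1 fell and 9 did not pass, with a median of 0.24. Zap70, Cd2, Klrk1, Klra7, Klrc3, Prf1 and Gzma were among the 9. Lilrb4a and Pira2, immunoglobulin-like receptors of myeloid cells, rose by 1.15 ± 0.0972 and 1.24 ± 0.187 (SD, n = 3; limma adjusted p = 8.24e-05 and 0.000121). Klra2, of the Ly49 receptor family, rose by 1.14 ± 0.262 (limma adjusted p = 0.000303), a call lost with exact 0 kept. The chains of the CD8 co-receptor parted: Cd8a stood at 1.16, 0.85 and 0.96, a mean of 0.99 ± 0.157 (limma adjusted p = 0.000205; 0.53 with exact 0 kept), and Cd8b1 at -0.077, 0.085 and -0.17, a mean of -0.054 ± 0.129 (limma adjusted p = 0.597), which turned to 0.16 with exact 0 kept. Klrd1, the CD94 partner of the receptors that read the Qa-1 molecule of H2-T23, was at 0.72, -0.019 and 0.42 and did not pass (0.37 ± 0.372, limma adjusted p = 0.0596). It passed without mouse 2 (0.57, limma adjusted p = 0.00526) and was at 0.20 without mouse 1. The gene that fell was Tbx21, a transcription factor of T and NK cells, at -0.23 ± 0.101 (limma adjusted p = 0.0422), a call lost without mouse 2, without mouse 3, without centring and with exact 0 kept. Of the 36 genes of this list in the table only these 16 could be tested, and Cd3e, Gzmb and Nkg7 were among those at 0 on all 3 arrays.

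MHC class II molecules, which present peptides to CD4 T cells, were also higher. Of 7 tested class II genes 6 rose (85.7%, beside 20.8% of all features) and 1 did not pass, with a median of 0.89. With exact 0 kept 1 of 7 rose. H2-Aa and H2-Ab1, the chains of the I-A molecule, rose by 0.95 ± 0.175 and 0.94 ± 0.178 (SD, n = 3; limma adjusted p = 0.000273 and 0.00029), H2-Ea by 0.89 ± 0.175, H2-DMa by 0.77 ± 0.106, and the invariant chain Cd74 by 0.82 ± 0.292. All but H2-DMa of these 5 lost their calls with exact 0 kept. Ciita, the master regulator of class II transcription, was at -0.073 ± 0.178 and did not pass (limma adjusted p = 0.52), with -0.17 without mouse 1 and 0.0037 without mouse 2. The class II genes had their list mean lowest in mouse 2, at 0.60 beside 0.95 and 0.69, as the class I genes had theirs, at 0.36 beside 0.57 and 0.50.

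Of 18 leukocyte and macrophage markers, 17 were in the table and 15 were tested; Cd14 was at 0 on every array and Spi1 had a ratio in mouse 1 only. The highest were Lyz2, lysozyme of macrophages, at 1.69 ± 0.0986 (SD, n = 3), Ptprc, the pan-leukocyte CD45, at 1.33 ± 0.124, and the complement chains C1qc and C1qa at 1.32 ± 0.201 and 1.22 ± 0.115. With exact 0 kept 6 of them were called, and Ptprc moved to 0.30. Of 9 tested kidney markers 6 fell (66.7%, beside 22.3% of all features), 1 rose and 2 did not pass, with a median of -0.47. The proximal tubule genes Slc34a1, a phosphate transporter, and Cubn, an uptake receptor, stood at -1.22 ± 0.278 and -0.88 ± 0.0644, the loop transporter Slc12a1 at -0.87 ± 0.24 and the water channel Aqp1 at -0.47 ± 0.0776. Aqp2, the water channel of the collecting duct, rose by 0.29 ± 0.13, a call lost without mouse 3 and with exact 0 kept. Aqp3, another water channel of this list, fell to -0.70 ± 0.295 (limma adjusted p = 0.0029). It kept its call with any mouse left out and lost it with exact 0 kept. Exact 0 kept left 2 of the 6 calls of lower kidney markers and moved Slc34a1 to -0.71. Umod, Kap and Podxl were at 0 on all 3 arrays. Ratios hold no level, so the labelled tissue could not be checked by how abundant these markers are.

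H2-Q10 is known as a liver product, so liver markers were set beside it. Of 7 tested, 2 rose, 2 fell and 3 did not pass, with a median of -0.093. Each direction holds 28.6% of them, beside 20.8% higher and 22.3% lower over all features. Apoh and Fga stood at 0.54 ± 0.113 and 0.49 ± 0.244 (SD, n = 3), Apoa2 at -0.64 ± 0.242, and Alb, albumin, at -2.06 ± 0.449. With exact 0 kept all 4 calls were lost.

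**Figure D4:**
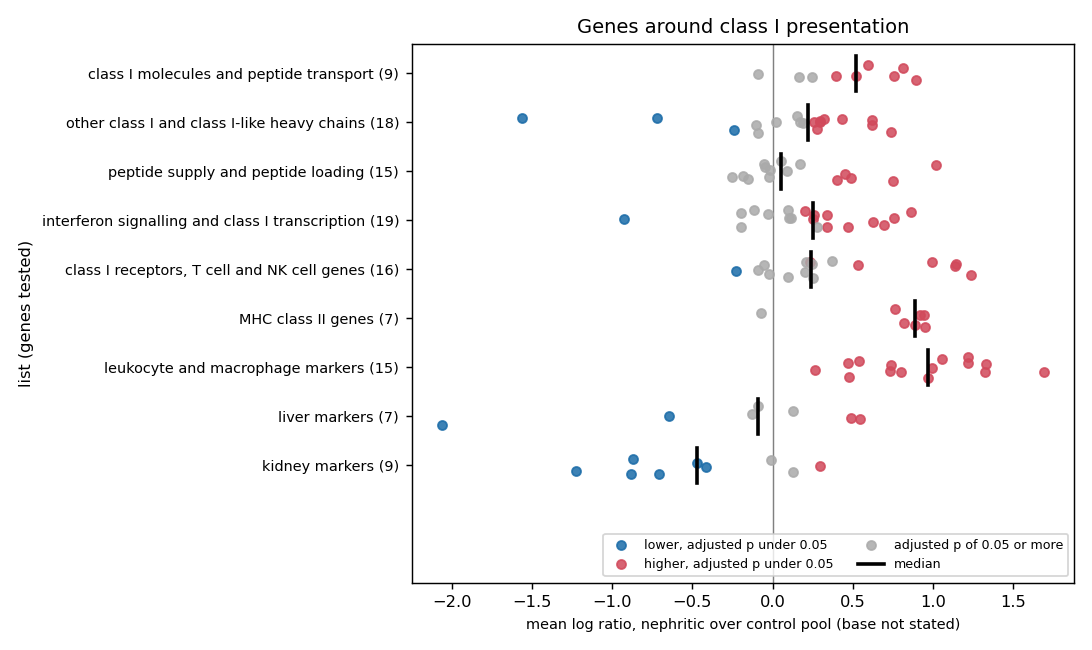
Mean log ratio (x axis, base not stated) of each tested gene, by list (y axis, number of genes tested in brackets); dots are genes coloured by call, spread vertically at random for legibility, and black ticks are list medians. Leukocyte and macrophage markers (median 0.97) and class II genes (0.89) lie right of the class I and peptide transport genes (0.52), and kidney markers (-0.47) lie left of 0.

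All 9 tested genes lie in the MHC on chromosome 17, between Tapbp and H2-M3 in RefSeq gene order, while B2m lies on chromosome 2. Class I heavy chain genes sit at both ends of this stretch, H2-K1 near Tapbp and the D, Q, T and M genes beyond the class II and complement genes, and Tap1, Tap2 and Psmb8 sit among the class II genes. Of 9 other tested class I genes of the stretch 6 rose and 2 fell, and 5 of 5 tested class II genes rose. Of the 51 remaining tested genes of other kinds, 14 rose (27.5%), 8 fell (15.7%) and 29 did not pass, with a median of 0.09. Over all features 20.8% were higher and 22.3% lower. The highest of these other genes, named after their values were seen, were D17H6S56E-5 at 1.29 ± 0.0378 (SD, n = 3) and C4b, a complement component, at 1.21 ± 0.133.

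**Figure D5:**
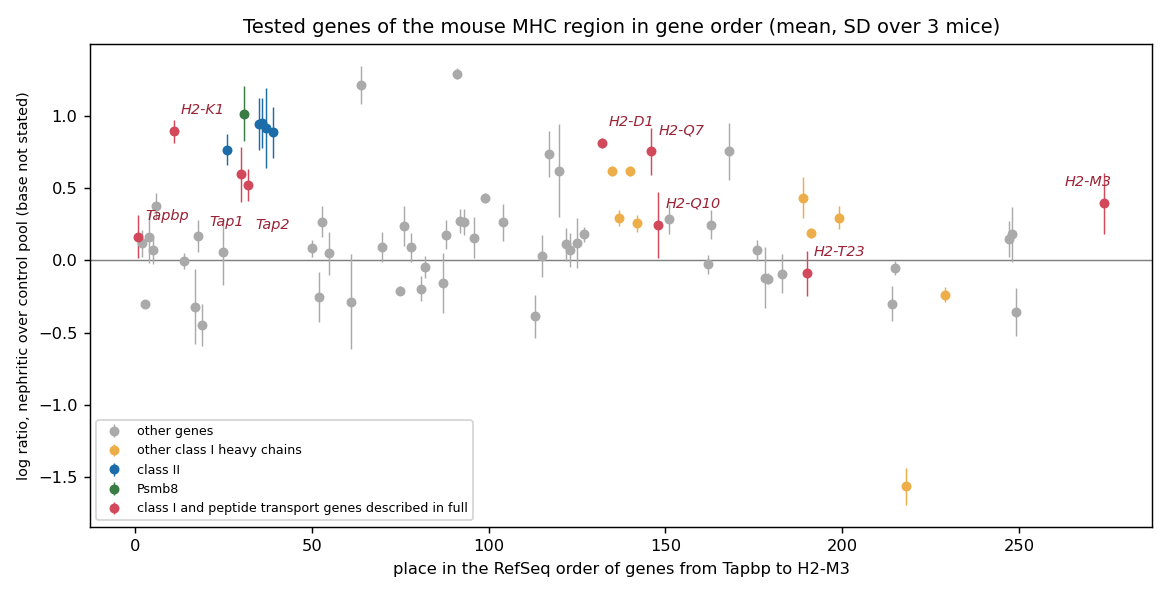
Mean log ratio (y axis, base not stated; error bars, SD over 3 mice) of the tested genes of the MHC region, placed by their order from Tapbp to H2-M3 (x axis, gene number and not distance). Class II genes and Psmb8 stand together between H2-K1 and the heavy chains of the D and Q genes, and H2-M10.1 at -1.56 is the lowest point.

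The mean profile of the 9 genes was 0.57, 0.36 and 0.50 in mice 1, 2 and 3. Outside them, the 5 named genes with ratios closest to it, by root mean square difference over the 3 mice, were Esyt1 (0.0166), Msr1 (0.0233), Tlr1 (0.0256), Ramp1 (0.0269) and Eif4ebp1 (0.0289). Msr1 is a scavenger receptor of macrophages and Tlr1 a receptor for bacterial lipopeptides. Over 3 points many genes can lie this close, and the list is a description.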

How the data were processed

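Each array compared kidney RNA of 1 nephritic mouse (Cy5) with 1 pool of control RNA (Cy3), with no dye swap, per the labels. The deposited values are log ratios, 1 per row and array, whose normalization, base and direction no source used here states. Exact 0 was read as missing, each array was centred on its median (0.0151 to 0.0171), and rows with a ratio on all 3 arrays (9693 of 16281) were averaged per gene. limma 3.58.1 in R 4.3.3 tested the 3 ratios against 0, two-sided, with Benjamini-Hochberg adjustment over 8449 features; the step was tested on simulated data. The number of arrays limits the precision. Of 13738 rows with 1 gene symbol in the platform annotation, 13694 were matched to RefSeq by identifier; 52 rows had several symbols and 2491 none.

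The genes and the lists around them were chosen with earlier results of these data known. Genes named from each list were the 4 tested genes of smallest p, up to 3 called genes against the list's majority, and a fixed set of names (among them Psmb8, Psmb9, Psmb10, Psme1, Psme2, Erap1, Tapbpl, Calr, Canx, Pdia3, Nlrc5, Rfx5, Ifng, Ifngr1, Ifngr2, Irf1, Irf9, Cd8a, Cd8b1, Klrd1, H2-Aa, H2-Ab1, Cd74, Ciita, Ptprc and Alb); further heavy chains, D17H6S56E-5 and C4b were picked with their values in view. Alternatives changed centring, scaling, the treatment of exact 0, rows and arrays required, the prior, array weights, moderation and a filter on the SD, and left out each mouse. Protein sequences of the heavy chains were not analysed here. Motifs were searched in 32851 RefSeq windows of GRCm38.p6.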

Additional observations from a re-analysis of the deposited data

How the results depend on the processing

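Over 117 refits of the 9 genes under the alternatives, 103 kept direction and side of the threshold, 11 lost a call, 3 gained one and 0 changed direction. The robust prior, the unmoderated test and the SD filter reuse the same means. For a gene with 1 row, so do the median of rows and the rows tested singly. Direction could not change in those refits, so these counts do not measure how firm a direction is. With exact 0 kept, calls were lost for H2-Q7 (0.77), H2-M3 (0.41), Tap1 (0.61) and Tap2 (0.54). The rows of these genes held no 0. Apart from the centring, only the prior and the adjustment differed for them, with 13241 features tested in place of 8449. In that setting 2 of the genes were called higher, and 549 features were higher and 437 lower. With the unmoderated one-sample test the means of H2-K1 (0.89), H2-D1 (0.81), H2-Q7 (0.75), H2-M3 (0.40), Tap1 (0.60) and Tap2 (0.52) stood and their calls did not (adjusted p from 0.0571 to 0.181), and 0 genes and 0 features were called in either direction, although 3060 features had an unadjusted p under 0.05, beside 4361 by limma. Array weights (0.394, 0.723 and 3.50 for mice 1, 2 and 3) brought in H2-Q10 (0.30) and Tapbp (0.18). Of the 2 Tap1 rows tested singly, 1 did not pass (0.36). With the 20% of features of lowest SD left out, H2-D1 was itself left out and has no value. Leaving out each mouse in turn gave H2-Q10 from 0.17 to 0.38, called without mouse 2, and 1096 to 2017 features higher and 1106 to 2176 lower, the lowest without mouse 3. Uncentred, 1863 features were higher and 1730 lower. The causes of the other changes were not tested. No paired analysis was possible because there is 1 group, and its 3 arrays share 1 control pool. The 3 arrays, the shared pool, the single dye orientation and the unknown base limit every value.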
